A study of Mus musculus with 4 samples.

Results

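The Bcl2 family of apoptosis regulators was measured in late 2-cell (2C) mouse embryos that developed with or without Mdivi-1, a small-molecule inhibitor of the mitochondrial fission GTPase DRP1. The members were chosen by gene symbol, as 10 genes: *Bcl2*, *Bcl2l1*, *Bcl2l10*, *Bcl2l11*, *Mcl1*, *Bak1*, *Bax*, *Bid*, *Bad* and *Bok*. Of these, 9 had a row in the deposited table of 26022 genes. *Bak1* was not analysed here. After removal of low counts, 8 members were tested, and *Bcl2* is given by its counts.

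Embryos of the outbred ICR strain received 200 μM Mdivi-1 from the late zygote stage and were collected after 16 h in culture, and control embryos were cultured for the same time without the inhibitor. Both groups were of the same strain, and the labels name no engineered allele. Each group had 2 libraries, made by Smart-Seq2 from a small pool of whole embryos, so that embryos cannot be told apart within a library, nor fewer living cells from less RNA per cell. Neither the labels nor the methods say if the libraries came from different litters. A p-value here sets the difference between groups against the spread between libraries of a group, and part of that spread may be technical. The tests estimate this spread for a gene with information from all genes tested, not from that gene's values alone.

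The Bcl2 family decides whether the outer membrane of mitochondria stays intact. *Bax*, *Bak1* and *Bok* encode effectors that can open pores in this membrane and release cytochrome c, and *Bcl2*, *Bcl2l1* (Bcl-xL) and *Mcl1* encode pro-survival proteins that hold effectors and activators in check. The BH3-only proteins, here *Bcl2l11* (Bim), *Bid* and *Bad*, carry a short helix, the BH3 domain, that binds into a groove of the other members. *Bcl2l10* (also called Boo or Diva) encodes a homolog whose transcript is abundant in oocytes, and in the mouse both pro-survival and pro-death activity have been described for it.

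The BH3 core is the sequence feature through which the members bind each other, and it is shown here as coding sequence to present the family before its levels. A leucine codon, any 3 codons, a glycine codon and an aspartate codon were searched in frame in the coding sequence of 1 transcript per gene (GENCODE M21, GRCm38), and capitals mark these 6 codons. *Bad* had no such match and is shown with a relaxed form in which an alanine or serine codon may take the place of the glycine codon.
Bcl2: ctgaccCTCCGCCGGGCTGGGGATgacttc
Bcl2l1: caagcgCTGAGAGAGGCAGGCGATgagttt
Mcl1: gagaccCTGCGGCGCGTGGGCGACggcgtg
Bax: gagtgtCTCCGGCGAATTGGAGATgaactg
Bok: acagtgCTGCTGCGCTTGGGAGATgagctg
Bcl2l11: caggagCTGCGGCGGATCGGAGACgagttc
Bid: agacatCTCGCCCAAATAGGCGATgagatg
Bad: cgtgagCTCCGAAGGATGAGCGATgagttt

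Each of these 8 genes held 1 match, and the windows of different members shared between 12 and 20 of 30 bases, with 20 for *Bcl2l11* and *Bad*. Part of this sharing is set by the search, which aligns the windows on the searched codons. *Bcl2l10* held no match to either form, which says only that these codons are not in its coding sequence. The first form is found in 13.3% of 21584 coding genes, and in 7.16% of the 5786 genes with a coding length between the shortest and the longest member (191 and 331 codons). With the relaxed form included, the shares were 33.8% and 21.5%. The windows of *Bcl2l11* (chr2:128147144-128147173, plus strand, exon 3), *Mcl1* (chr3:95659430-95659459, plus strand, exon 1) and *Bax* (chr7:45466000-45466029, minus strand, exon 3) lie within 1 exon each, as do those of *Bcl2* (chr1:106712578-106712607, minus strand, exon 1), *Bcl2l1* (chr2:152829700-152829729, minus strand, exon 2), *Bid* (chr6:120897292-120897321, minus strand, exon 4) and *Bad* (chr19:6950786-6950815, plus strand, exon 3). That of *Bok*, on the plus strand of chromosome 1, crosses the junction of exons 2 and 3.

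A second core, that of the BH1 domain of the multidomain members, was searched as codons for asparagine, tryptophan, glycine and then arginine or lysine. *Bcl2l10*, *Bok* and the BH3-only members held no match, which says only that these codons are not in their coding sequences. It does not tell if a BH1 domain is absent, and no relaxed form was tried. The pattern was found in *Bcl2*, *Bcl2l1*, *Mcl1* and *Bax*.
Bcl2: gatggggtgAACTGGGGGAGGattgtggcc
Bcl2l1: gatggagtaAACTGGGGTCGCatcgtggcc
Mcl1: ggcgtaacaAACTGGGGCAGGattgtgact
Bax: ggcaacttcAACTGGGGCCGCgtggttgcc

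This second pattern is rare, at 0.139% of all coding genes and 0.138% of those in the length range of the members. The capitals again mark the codons of the pattern.

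The raw counts of the 4 libraries summed to between 17712075 and 20077326, and each library detected between 14793 and 16311 genes. Levels below are counts relative to the library total (CPM), scaled by TMM, a correction for differences in composition between libraries. After Benjamini-Hochberg adjustment, edgeR's quasi-likelihood test called 0 of 14259 genes (1179 higher and 1089 lower before adjustment, at p under 0.05), and DESeq2 called 461 higher and 389 lower at an adjusted p under 0.05 and a fold over 2. All 8 late 2C markers (such as *Zscan4d* and *Zfp352*) had counts in every library, with a summed level of 2025 and 2703 CPM in Mdivi-1 embryos and 942 and 1605 CPM in controls. Of 12 cumulus and granulosa markers, *Has2*, *Ptx3*, *Amh* and *Inha* were at 0 in every library, while *Tnfaip6* (144 to 294 counts), *Amhr2* (107 to 282) and *Cyp19a1* (7 to 90) had counts in every library. In control replicate 2, *Fshr* had 67 counts, *Sult1e1* 14 and *Foxl2* 11. *Fshr* also had 11 counts in Mdivi-1 replicate 2, and *Cyp11a1* and *Inhba* had at most 6 counts in a library. The list summed to 22.5 and 24.4 CPM in Mdivi-1 embryos and 20.3 and 35.9 CPM in control embryos. Of 8 blood and stroma markers, *Hba-a1* had 54.8 and 46.8 CPM in Mdivi-1 embryos and 59.3 and 56.7 CPM in control embryos, and *Hbb-bs* and *Hbb-bt* were at 0 in every library. *Hba-a2* (21 to 69 counts), *Ptprc* (24 to 28) and *Pecam1* (51 to 143) also had counts in every library. *Col1a2* had 18 and 17 counts in Mdivi-1 embryos and 0 in both controls, and *Col1a1* had 28 counts in Mdivi-1 replicate 2 only.

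*Dnm1l*, which encodes DRP1, the target of Mdivi-1, had 93.7 and 91.3 CPM in Mdivi-1 embryos and 37.9 and 33.1 CPM in control embryos. Its log2 fold change was 1.38 (SE 0.31), with an adjusted p of 0.153 by edgeR and 0.00952 by DESeq2.

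Among the 9 measured members, *Bcl2l10* had the highest level per length in every library. It was about 2-fold more abundant in Mdivi-1 embryos (2.10-fold). This difference passed the adjusted threshold by DESeq2 and by edgeR's likelihood ratio test, and not by edgeR's quasi-likelihood test. In TMM-scaled CPM, *Bcl2l11*, *Bax*, *Bok*, *Mcl1* and *Bid* lay below both controls in both Mdivi-1 libraries, as did 23.9% of all genes tested. None of these 5 passed the adjusted threshold in the quasi-likelihood test or in DESeq2 with all 4 libraries and the low-count filter. *Bcl2l1* and *Bad* overlapped between groups.

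*Bcl2l10* (chr9:75347758-75351632, plus strand, 1 annotated transcript) had 213 and 271 CPM in Mdivi-1 embryos, from 3971 and 5205 counts, and 112 and 118 CPM in control embryos, from 2461 and 1805 counts. Both Mdivi-1 libraries lay above both controls, and on the TMM scale the controls were close to each other. The means were 242 ± 41.1 CPM in Mdivi-1 embryos and 115 ± 4.55 CPM in control embryos (SD, n = 2 each). On the log2 scale the difference was 1.07 (SE 0.29, 95% interval 0.39 to 1.75), with an adjusted p of 0.185 by edgeR's quasi-likelihood test. DESeq2, run on the same genes, gave a log2 fold change of 1.06 and an adjusted p of 0.0243, and the adjusted p ranged between 0.0243 and 0.211 over the 8 other tests, scalings, filters and the block.

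The DESeq2 log2 fold change of *Bcl2l10* was 1.23 without Mdivi-1 replicate 1 and 0.88 without Mdivi-1 replicate 2. In these fits 1 library stood for the treated embryos. It was 0.99 without control replicate 1 and 1.09 without control replicate 2. The DESeq2 fits without 1 library were added after seeing the data. In the planned edgeR fits without 1 library, the log2 fold change of *Bcl2l10* lay between 0.87 and 1.24. As *Bcl2l10* is an oocyte transcript, the oocyte and egg markers are given beside it: 8 of 10 were on the positive side (51.3% of all genes tested), 3 passed upward and 1 downward at an unadjusted p under 0.05 by edgeR (8.27% and 7.64% of all genes), none was at 0 in any library, and their summed level was 3497 and 4504 CPM in Mdivi-1 embryos and 1506 and 3055 CPM in control embryos. Most of this sum was *Oosp1*, at 2401 and 3198 CPM in Mdivi-1 embryos and 956 and 2368 CPM in control embryos. The markers that passed upward were *Bmp15*, *Zp2* and *Gdf9*, with edgeR log2 fold changes of 1.84, 1.38 and 1.01. Each of them lay above both controls in both Mdivi-1 libraries. Their adjusted p by DESeq2 was 2.49e-05, 0.0395 and 0.0861, and none passed adjustment by edgeR's quasi-likelihood test. *Zp3* was the marker that passed downward, at 149 and 99.2 CPM in Mdivi-1 embryos and 198 and 270 CPM in control embryos (log2 fold change -0.91). The part of oocyte transcripts as a whole in the *Bcl2l10* result was not tested.

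*Mcl1* (chr3:95658788-95663176, plus strand), which encodes a short-lived pro-survival protein needed by the early mouse embryo, had 119 and 106 CPM in Mdivi-1 embryos and 150 and 162 CPM in control embryos. Both controls lay above both Mdivi-1 libraries, and replicates differed less than the groups did. The log2 fold change was -0.47 (SE 0.28, 95% interval -1.13 to 0.19; adjusted p = 0.466 by edgeR and 0.451 by DESeq2). It stayed between -0.56 and -0.41 when any 1 library was left out.

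*Bcl2l1*, which encodes the pro-survival Bcl-xL, had 10.3 and 18.9 CPM in Mdivi-1 embryos and 8.37 and 11.5 CPM in control embryos. The lower Mdivi-1 library lay between the controls. Its log2 fold change of 0.56 (SE 0.55, 95% interval -0.73 to 1.84; edgeR adjusted p = 0.700) came to 0.04 without Mdivi-1 replicate 2.

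*Bcl2*, the founding pro-survival member, was near the limit of detection. It had 1 and 23 counts in Mdivi-1 embryos and 1 and 0 counts in control embryos, and was removed by the low-count filter. Only Mdivi-1 replicate 2 had more than 1 count, at 1.20 CPM with an exact Poisson 95% interval of 0.760 to 1.80 CPM, and a count of 0 in control replicate 2 allows a level of up to 0.197 CPM by the rule of 3 counts and 0.242 CPM by the exact Poisson interval. These intervals cover counting error only. *Bcl2* shares 6.09% of its exon length with an antisense gene, *D630008O14Rik*, and Smart-Seq2 reads carry no strand.

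**Figure D1:**
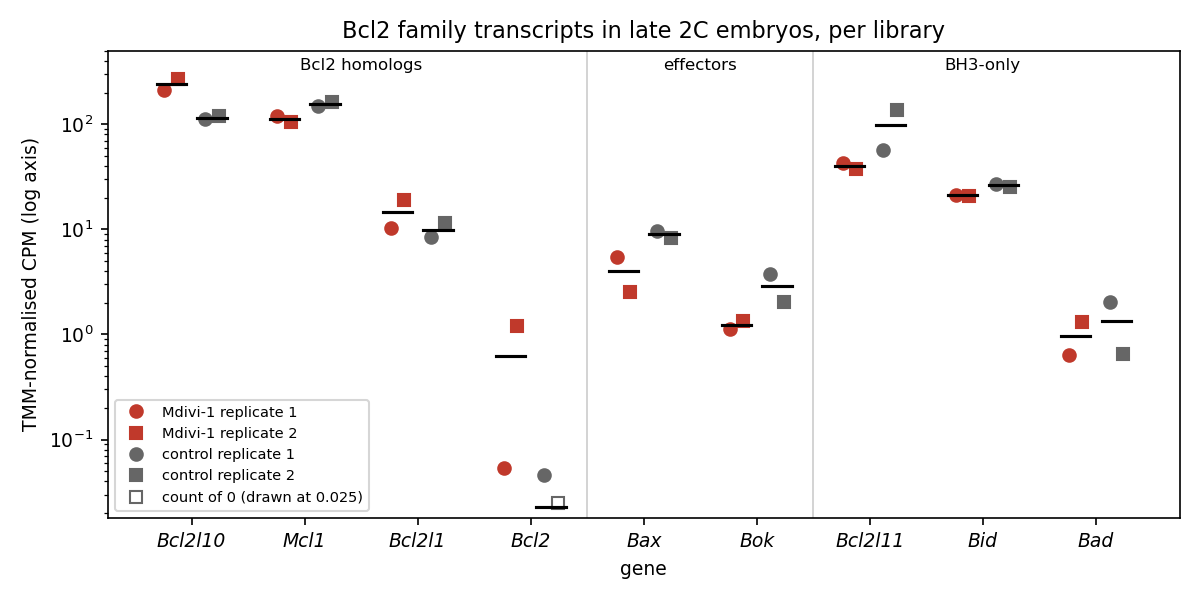
Level of each measured Bcl2 family member in each library, in TMM-normalised CPM on a log axis, with Mdivi-1 libraries in red to the left of control libraries in grey, circles for replicate 1, squares for replicate 2 and a black bar at the group mean (n = 2). *Bcl2l10* is the only tested member with both red points above both grey points, at 213 and 271 against 112 and 118 CPM, and the open square marks the library in which *Bcl2* had 0 counts.

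Of the effectors, *Bax* (chr7:45461697-45466898, minus strand), whose product opens the outer membrane once activated, had 5.42 and 2.55 CPM in Mdivi-1 embryos and 9.60 and 8.33 CPM in control embryos. Both Mdivi-1 libraries were below both controls, on 101 and 49 counts in Mdivi-1 embryos and 211 and 127 counts in controls. The log2 fold change was -1.17 (SE 0.75, 95% interval -2.90 to 0.57; adjusted p = 0.501 by edgeR and 0.524 by DESeq2). *Bax* shares 12.2% of its exon length with an overlapping gene model on the same strand, *Gm45808*. Reads from there cannot be assigned to 1 gene, and may be missing from the *Bax* counts.

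*Bok*, an effector that is largely insensitive to the pro-survival members, had 1.13 and 1.36 CPM in Mdivi-1 embryos and 3.73 and 2.03 CPM in control embryos. The 4 libraries held 21 and 26 counts in Mdivi-1 embryos and 82 and 31 counts in controls, and the groups did not overlap. The log2 fold change of -1.21 had an interval from -4.23 to 1.80 (SE 1.30, edgeR adjusted p = 0.730).

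Among the BH3-only members, *Bcl2l11* (chr2:128126038-128162547, plus strand), whose product Bim binds pro-survival members and can activate Bax directly, had 43.2 and 37.2 CPM in Mdivi-1 embryos and 57.3 and 138 CPM in control embryos. The Mdivi-1 libraries were close to each other and below both controls, and the controls stood far apart. The means were 40.2 ± 4.20 CPM in Mdivi-1 embryos and 97.5 ± 56.7 CPM in control embryos (SD, n = 2 each). On the log2 scale the difference was -1.28 (SE 0.44, 95% interval -2.30 to -0.25), with an adjusted p of 0.237 by edgeR and 0.0675 by DESeq2.

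Control replicate 2 carried most of this difference. Without that library the log2 fold change of *Bcl2l11* was -0.53 by edgeR and by DESeq2. Without control replicate 1 it was -1.78 by edgeR and -1.82 by DESeq2. The edgeR fit with no low-count filter gave *Bcl2l11* an adjusted p of 0.0223, at the same log2 fold change, and the adjusted p ranged between 0.0223 and 0.290 over the 8 other tests, scalings, filters and the block. The TMM factors were 1.05 and 1.04 in Mdivi-1 embryos and 1.10 and 0.834 in control embryos, lowest in control replicate 2, and with library totals in place of TMM the log2 fold change of *Bcl2l11* was -1.08 (edgeR adjusted p = 0.290).

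*Bid*, which links death receptors to mitochondria once it is cleaved, had 21.4 and 21.0 CPM in Mdivi-1 embryos and 27.0 and 25.5 CPM in control embryos. On the TMM scale the replicates lay close together and the groups did not overlap. The raw counts were 398 and 402 in Mdivi-1 embryos and 593 and 389 in control embryos. Its log2 fold change was -0.31 (SE 0.38, 95% interval -1.20 to 0.58; edgeR adjusted p = 0.773). With library totals in place of TMM it was -0.20 (edgeR adjusted p = 0.908), and the groups then overlapped. *Bid* shares 17.7% of its exon length with *Bcl2l13* on the opposite strand, which had 75.7 and 57.7 CPM in Mdivi-1 embryos and 80.6 and 65.7 CPM in controls. Reads from the shared part could not be assigned by strand, and may be missing from the *Bid* counts.

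*Bad*, a BH3-only protein that is held inactive by phosphorylation and 14-3-3 binding, had 0.644 and 1.30 CPM in Mdivi-1 embryos and 2.05 and 0.656 CPM in control embryos. The groups overlapped, at 12 and 25 counts in Mdivi-1 embryos and 45 and 10 counts in controls. Its log2 fold change of -0.47 (SE 1.64, 95% interval -4.28 to 3.33; edgeR adjusted p = 0.937) turned to 0.56 without control replicate 1. *Bad* shares 20.5% of its exon length with *Gpr137* on the opposite strand.

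**Figure D2:**
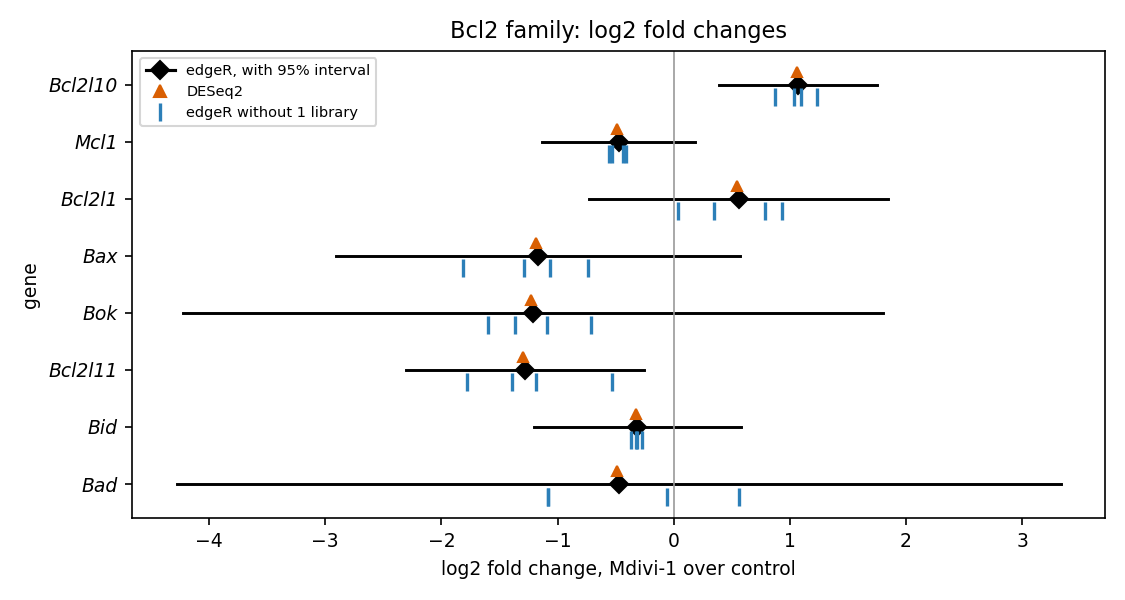
Log2 fold change of the 8 tested members, Mdivi-1 over control, with the edgeR estimate and its 95% interval in black, the DESeq2 estimate in orange and the 4 edgeR fits that each leave out 1 library in blue. The intervals of *Bcl2l10* (0.39 to 1.75) and *Bcl2l11* (-2.30 to -0.25) do not reach 0, and only *Bad* has an estimate on the other side of 0.

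Counted over the 8 tested members, 2 log2 fold changes were positive and 6 negative, against 51.3% positive and 48.7% negative over the 14259 genes tested. The median was -0.47, where that over all genes tested was 0.03 (quartiles -0.62 and 0.78). At an unadjusted p under 0.05 by edgeR, 1 member was higher (*Bcl2l10*) and 1 lower (*Bcl2l11*), beside 8.27% of all genes higher and 7.64% lower. In TMM-scaled CPM, both Mdivi-1 libraries were above both controls for 1 member and below both for 5, beside 26.1% and 23.9% of all genes.

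At an adjusted p under 0.05 and more than 2-fold, edgeR called 0 members and 0% of all genes in either direction. DESeq2 called 1 member higher and 0 lower, beside 3.23% of all genes higher and 2.73% lower. With so few members these counts are a description, and nothing particular to the family is read from them.

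To compare levels between genes, CPM were divided by the summed length of all annotated exons of a gene. This length covers every annotated transcript, so that a gene whose embryos use short forms is set too low, for example *Bcl2l11* with 8 transcripts and 8.029 kb. On this scale *Bcl2l10* came first in every library, with means of 199 ± 33.7 CPM per kb in Mdivi-1 embryos and 94.4 ± 3.73 CPM per kb in control embryos (SD, n = 2 each). *Mcl1* came next in both groups, at 32.9 CPM per kb in Mdivi-1 embryos and 45.7 CPM per kb in control embryos. It lay above the remaining measured members in each library.

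Below these, the order in Mdivi-1 embryos was *Bid* (5.96 CPM per kb), *Bcl2l11* (between 4.64 and 5.37), *Bcl2l1* (3.19), *Bax* (2.53), *Bok* (0.675), *Bad* (0.381) and *Bcl2* (0.0684). The ranges of neighbours in this order overlapped for *Bcl2l1* and *Bax* only. In control embryos the order was *Bcl2l11* (12.1 CPM per kb), *Bid* (7.40), *Bax* (5.69), *Bcl2l1* (2.16), *Bok* (1.57), *Bad* (0.529) and *Bcl2* (0.00248). There *Bcl2l11* overlapped with *Bid*, and *Bcl2l1* with *Bok*. The effector *Bax* thus ranked above the pro-survival *Bcl2l1* per length in both control libraries, while in Mdivi-1 embryos the ranges of these 2 genes overlapped.

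The make-up of the family within each library does not depend on the scaling between libraries, and it is given as a description, with no test. Summed over the 9 genes, the family had 414 and 461 CPM in Mdivi-1 embryos and 370 and 466 CPM in control embryos, so that the totals overlapped. Of the family counts, *Bcl2l10* made up 51.5% and 58.9% in Mdivi-1 embryos and 30.2% and 25.4% in control embryos. It outnumbered all other measured members together in both Mdivi-1 libraries, and in both controls *Mcl1* had the largest share. *Bak1* was not analysed and is not part of these sums.

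*Mcl1* made up 28.7% and 23.0% of the family counts in Mdivi-1 embryos and 40.6% and 34.8% in control embryos. There were 1.79 and 2.56 *Bcl2l10* counts for each *Mcl1* count in Mdivi-1 embryos and 0.746 and 0.730 in control embryos. By counts the pair thus changed order between the groups, and per kb of exon it did not, with *Bcl2l10* at 76.8% and 82.0% in Mdivi-1 embryos and 56.9% and 54.5% in control embryos, and *Mcl1* at 15.3% and 11.4% in Mdivi-1 embryos and 27.3% and 26.7% in control embryos.

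*Bcl2l11* made up 10.4% and 8.08% of the family counts in Mdivi-1 embryos and 15.5% and 29.5% in control embryos. The ratio of *Mcl1* to *Bcl2l11*, a pair whose proteins bind each other, was 2.76 and 2.85 in Mdivi-1 embryos and 2.62 and 1.18 in control embryos, where control replicate 1 lay close to the Mdivi-1 libraries. *Bax* made up 1.31% and 0.554% in Mdivi-1 embryos and 2.59% and 1.79% in control embryos.

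The counts of the 4 homologs *Bcl2l10*, *Mcl1*, *Bcl2l1* and *Bcl2* were set against those of the effectors *Bax* and *Bok*. The log2 ratio was 5.71 and 6.67 in Mdivi-1 embryos and 4.34 and 4.82 in control embryos, without overlap. Since the activity of mouse *Bcl2l10* has been described in both directions, the ratio was also taken without it, and it was then 4.30 and 5.01 in Mdivi-1 embryos and 3.57 and 4.07 in control embryos. Against the BH3-only members *Bcl2l11*, *Bid* and *Bad*, the log2 ratio of the 4 homologs was 2.39 and 2.74 in Mdivi-1 embryos and 1.65 and 0.83 in control embryos. These are ratios of RNA, and protein was not measured. *Bak1*, the remaining effector, was not analysed, so the ratios to effectors leave it out and rest on *Bax* and *Bok* alone.

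**Figure D3:**
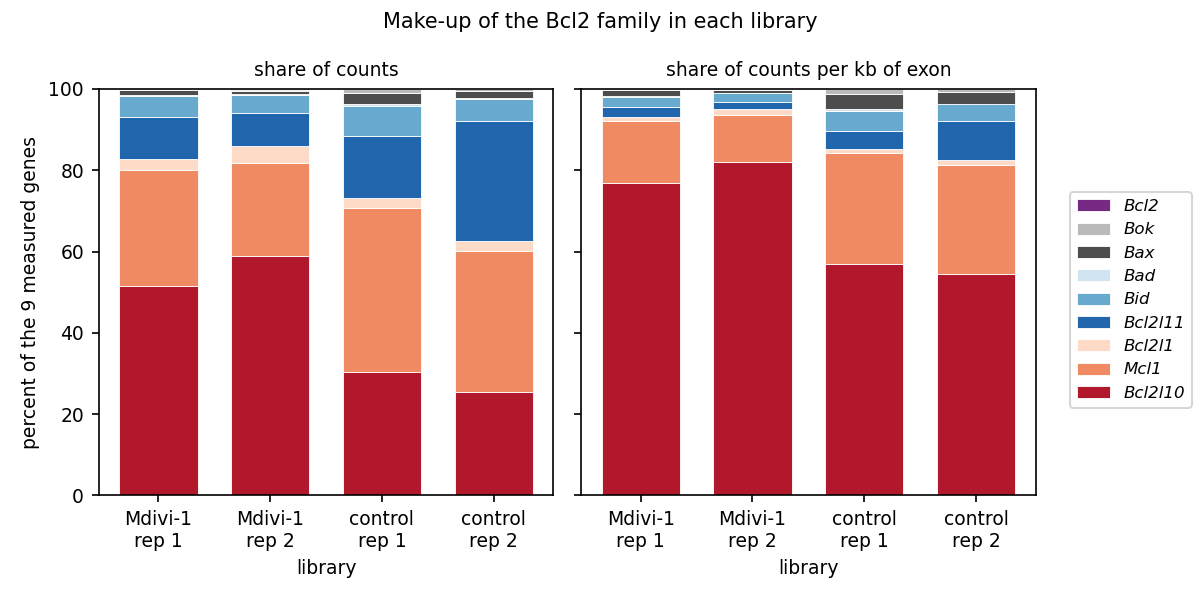
Share of each member in the family counts (left) and in the family counts per kb of exon (right), in percent of the 9 measured genes, with 1 stacked bar per library and the Mdivi-1 libraries to the left of the controls. *Bcl2l10*, at the bottom, takes 51.5% and 58.9% of the counts in Mdivi-1 embryos and 30.2% and 25.4% in control embryos, and 54.5% to 82.0% per kb of exon over the 4 libraries.

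Genes that act with the family were taken from 7 lists by their known role, of which 71 genes had a row and 65 were tested. Their log2 fold changes were positive for 30 and negative for 35, and the median of the 65 was -0.06. At an unadjusted p under 0.05 by edgeR, 4 were higher and 3 lower, beside 8.27% and 7.64% of all genes, and 0 passed adjustment. DESeq2 called 2 of them higher and 2 lower at an adjusted p under 0.05 and more than 2-fold, beside 3.23% and 2.73% of all genes. Both Mdivi-1 libraries were above both controls for 12 of them and below for 17, beside 26.1% and 23.9% of all genes. From each list up to 3 genes with the smallest p are given, and *Vdac1*, *Pmaip1* and *Apaf1*, which were added for their role after their values were seen.

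The partners of the family in the outer mitochondrial membrane and the endoplasmic reticulum (10 tested) had a median log2 fold change of 0.53, with 7 positive and 3 negative. *Vdac2*, a channel of the outer membrane that binds Bak and takes part in bringing Bax to mitochondria, had 186 and 184 CPM in Mdivi-1 embryos and 60.0 and 60.4 CPM in control embryos. On the TMM scale replicates lay close together in both groups, and the group means stood 3.07-fold apart. The log2 fold change was 1.62 (SE 0.29), with an adjusted p of 0.140 by edgeR and 0.000158 by DESeq2. *Vdac3*, a related channel, had 109 and 93.6 CPM in Mdivi-1 embryos and 69.0 and 45.3 CPM in control embryos (log2 fold change 0.82, edgeR adjusted p = 0.283). *Vdac1* overlapped, at 26.5 and 35.7 CPM in Mdivi-1 embryos and 29.0 and 36.2 CPM in control embryos. *Bcap31*, an endoplasmic reticulum protein that is cleaved in apoptosis, had 262 and 422 CPM in Mdivi-1 embryos and 467 and 856 CPM in control embryos (log2 fold change -0.95, edgeR adjusted p = 0.308).

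The other homologs and BH3 proteins had 12 tested genes of 16, with 3 positive and 9 negative log2 fold changes and a median of -0.53. *Bnip3*, a BH3-like protein of the outer mitochondrial membrane that also acts as a mitophagy receptor, had 72.6 and 105 CPM in Mdivi-1 embryos and 228 and 189 CPM in control embryos. Both controls were well above both Mdivi-1 libraries, with a log2 fold change of -1.23 (SE 0.32) and an adjusted p of 0.176 by edgeR and 0.0115 by DESeq2. *Bcl2l14* had 16.2 and 15.0 CPM in Mdivi-1 embryos and 29.6 and 26.1 CPM in control embryos (log2 fold change -0.84, edgeR adjusted p = 0.358). *Bbc3*, which encodes the BH3-only protein Puma, had 4 and 0 counts in Mdivi-1 embryos and 34 and 39 counts in control embryos, with an adjusted p of 0.392 by edgeR. *Pmaip1* (Noxa), a BH3-only partner of Mcl1, overlapped between groups, at 25.6 and 11.3 CPM in Mdivi-1 embryos and 15.3 and 19.9 CPM in control embryos.

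Downstream of the mitochondria, the apoptosome, the caspases and the released factors (14 tested) had a median log2 fold change of -0.08, with 6 positive and 8 negative. *Casp6*, an executioner caspase, had 2.79 and 2.81 CPM in Mdivi-1 embryos and 14.3 and 24.2 CPM in control embryos. The Mdivi-1 libraries held 52 and 54 counts and the controls 314 and 369, with a log2 fold change of -2.78 (SE 0.60) and an adjusted p of 0.151 by edgeR and 0.00359 by DESeq2. *Cradd*, an adaptor that recruits caspase-2, had 10.1 and 4.33 CPM in Mdivi-1 embryos and 1.18 and 1.31 CPM in control embryos (log2 fold change 2.52, edgeR adjusted p = 0.272). *Casp2* itself had 9.29 and 9.12 CPM in Mdivi-1 embryos and 4.55 and 5.64 CPM in control embryos (log2 fold change 0.85, edgeR adjusted p = 0.597). *Apaf1*, the scaffold of the apoptosome, had a log2 fold change of 0.17.

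The kinases and 14-3-3 proteins that act on Bad (13 tested) had a median log2 fold change of -0.10, with 4 positive and 9 negative. *Ywhaz*, the zeta 14-3-3 protein, had 319 and 453 CPM in Mdivi-1 embryos and 177 and 141 CPM in control embryos. It stood above the controls in both Mdivi-1 libraries, with a log2 fold change of 1.28 (SE 0.32) and an adjusted p of 0.173 by edgeR and 0.00515 by DESeq2. The 14-3-3 genes *Ywhah* and *Ywhab* lay below the controls, at -0.55 and -0.56 on the log2 scale, with edgeR adjusted p of 0.439 and 0.457.

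The inhibitors of apoptosis proteins (6 tested) had 3 positive and 3 negative log2 fold changes and a median of -0.09. *Birc6*, a large inhibitor of apoptosis that is also a ubiquitin ligase, had 208 and 216 CPM in Mdivi-1 embryos and 363 and 286 CPM in control embryos (log2 fold change -0.61, edgeR adjusted p = 0.359). *Birc3* had a log2 fold change of 0.43 and *Xiap*, a direct caspase inhibitor, one of -0.25.

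Regulators of the stability of family proteins (4 tested) had a median of 0.31, with 3 positive and 1 negative. *Usp9x*, which removes ubiquitin from Mcl1, had 340 and 396 CPM in Mdivi-1 embryos and 326 and 255 CPM in control embryos (log2 fold change 0.34, edgeR adjusted p = 0.653). *Fbxw7*, part of a ubiquitin ligase of Mcl1, overlapped between the groups. Of the transcription factors that act on the family (6 tested, 4 positive and 2 negative, median 0.44), *Trp63*, the p53 relative of oocytes, had 6.76 and 3.60 CPM in Mdivi-1 embryos and 1.32 and 1.18 CPM in control embryos, with 126 and 69 counts in Mdivi-1 embryos and 29 and 18 in controls (log2 fold change 2.04, edgeR adjusted p = 0.402). *Foxo3*, which activates *Bcl2l11* in several cell types, had 1052 and 1131 CPM in Mdivi-1 embryos and 759 and 807 CPM in control embryos (log2 fold change 0.48, edgeR adjusted p = 0.493). *Foxo1* overlapped, with a log2 fold change of 0.39.

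**Figure D4:**
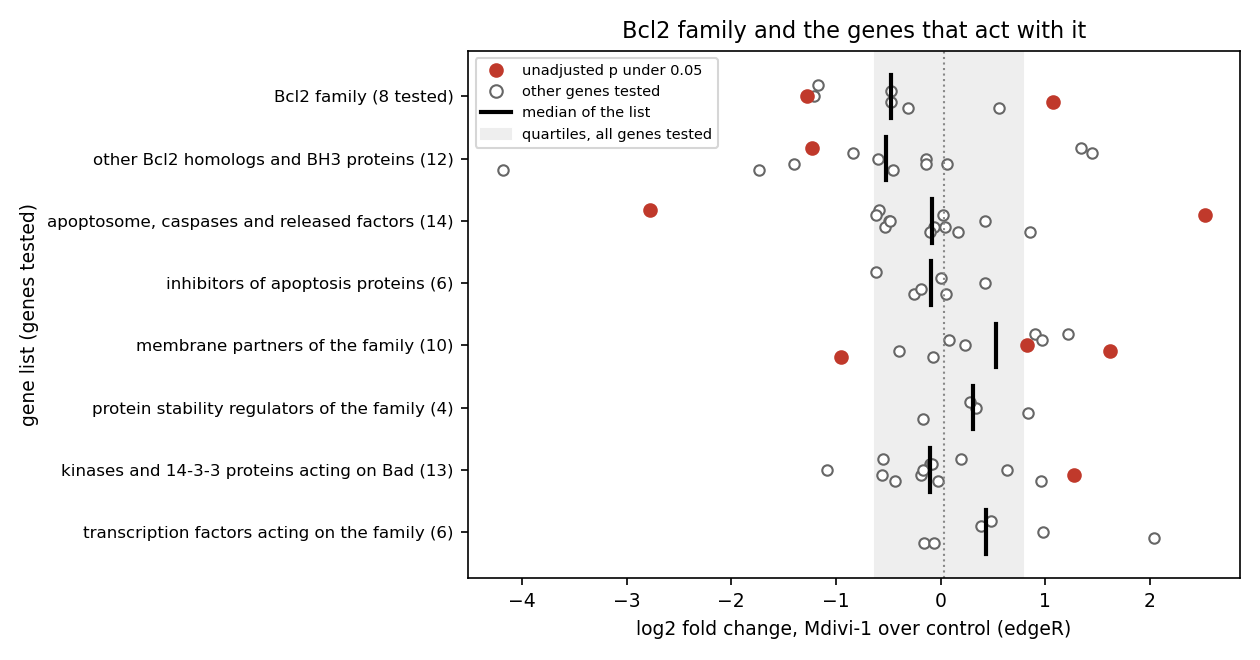
EdgeR log2 fold changes, Mdivi-1 over control, of the Bcl2 family and of 7 lists of genes that act with it, with 1 point per tested gene, a black bar at the median of a list, filled points at an unadjusted p under 0.05 and a grey band between the quartiles of all genes tested (-0.62 and 0.78). The family median lies at -0.47 and that of the membrane partners at 0.53, both within the band, and the filled points include *Vdac2* at 1.62 and *Casp6* at -2.78.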

How the data were processed

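RNA of late 2C embryos was amplified by Smart-Seq2, which keeps neither strand nor molecular tags, and was sequenced in 2 Mdivi-1 and 2 control libraries. The authors removed adapters with cutadapt 1.16, aligned with STAR and made counts of uniquely mapped reads per gene with its GeneCounts option. The submitters' processing notes name the build mm10. The deposited table holds these raw counts, which were the values used. It also holds a signal, which the authors made by dividing the counts by one size factor per library, with its mean. The deposited log2 fold changes, the score columns (their standard error and the Wald statistic) and the p-values are the authors' own DESeq2 comparison and were not used.

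Of 26022 rows, 32 had no symbol. Groups and replicate numbers came from the sample titles. With edgeR 4.0.16 in R 4.3.3, filterByExpr (minimum count 10) left 14259 genes, which were scaled by TMM and entered the two-sided quasi-likelihood test, adjusted by Benjamini-Hochberg over all of them. A gene was called at an adjusted p under 0.05 and more than 2-fold. Standard errors and intervals were worked back from the F statistic and its degrees of freedom. The biological coefficient of variation was 0.660. Replicates differed beyond counting error (chi-square over its degrees of freedom 56.1 in Mdivi-1 embryos and 124 in controls), so that no library was a copy of another.

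DESeq2 1.42.0, limma-voom (limma 3.58.1) and the likelihood ratio test of edgeR, other scalings and filters, the replicate number as a block and each library left out were run as alternatives. The DESeq2 fits without 1 library were added after seeing the data. Fits were tested on simulated counts. Exon lengths, positions, overlaps and coding sequences were taken from GENCODE M21 on GRCm38, since positions in the deposited table differ from that build. The paper names a later GENCODE release for its mapping, so these lengths and overlaps may differ from those behind the counts. The members and lists were chosen with earlier results of these data known. Named are all members, *Dnm1l* and, from a list, at most the 3 genes of smallest p, with 3 exceptions given in the text. A gene that this rule names is left out here. Intervals on counts cover counting error only.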

Additional observations from a re-analysis of the deposited data

How the results depend on the processing

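The direction and the side of the threshold held in 120 of 128 alternative values of the members. DESeq2 called 461 genes higher and 389 lower, limma-voom 125 and 77, the edgeR likelihood ratio test 512 and 355, and edgeR without a low-count filter 455 and 364, against 0 and 0 by the edgeR quasi-likelihood test. With 1 library left out, in which case the lone library is assumed to vary like the other group, edgeR called between 0 and 7 genes higher and 0 and 3 lower, and DESeq2 57 higher and 33 lower without Mdivi-1 replicate 1, 73 and 149 without Mdivi-1 replicate 2, 791 and 569 without control replicate 1 and 611 and 192 without control replicate 2. Genes at an unadjusted p under 0.05 then numbered between 566 and 1696 higher and 502 and 1263 lower by edgeR, and 514, 557, 1807 and 1451 higher and 776 to 1269 lower by DESeq2 in the same order. Scaling by library totals gave 1287 higher and 769 lower, against 1179 and 1089 by TMM, and put the median of all genes at 0.14 on the log2 scale, against 0.03. *Bcl2l10* passed the adjusted threshold by DESeq2 (log2 fold change 1.06), by the likelihood ratio test (1.07, adjusted p = 0.0351), and by DESeq2 without control replicate 1 (0.99) or control replicate 2 (1.09). *Bcl2l11* passed it with no low-count filter (-1.28) and by DESeq2 without control replicate 1 (-1.82). *Bad* ranged between -1.09 (without control replicate 2) and 0.56 (without control replicate 1) by edgeR, and was 0.53 by DESeq2 without control replicate 1, so that its sign reversed. With 1 library left out, members higher at an unadjusted p under 0.05 numbered between 0 and 1 and members lower between 0 and 1 by either tool. *Bcl2l10* was not among them without Mdivi-1 replicate 2, and *Bcl2l11* was not without Mdivi-1 replicate 1 (edgeR), Mdivi-1 replicate 2 or control replicate 2. Over the 7 lists, between 2 and 6 genes were higher and 1 to 4 lower. The mean share of *Bcl2l10* in the family was 79.4% in Mdivi-1 embryos and 55.7% in control embryos per kb of exon, against 55.2% and 27.8% of the counts. The causes of these shifts were not tested. The replicate number as a block gave *Bcl2l10* a log2 fold change of 1.06 and *Bcl2l11* one of -1.15, with edgeR adjusted p of 0.211 and 0.272, and changed no call. Same-numbered libraries did not deviate together (correlation across genes 0.00809), so that the numbers were not taken as pairs. *Bcl2*, *Bad* and *Bok* rest on the fewest counts of the family, between 0 and 82 in a library.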
